A study of Homo sapiens with 16 samples.

Results

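The subject here is the set of genomic sites at which BORIS was found inside acetylated chromatin of TC-71 cells, an established Ewing sarcoma line that the labels place after chemotherapy. A site was taken when a distinct BORIS peak of TC-71 on chromosomes 1 to 22 or X shared at least 1 bp with an H3K27ac domain of the same line. The rule found 303 of 534 BORIS sites, a share of 56.7% with an exact (Clopper-Pearson) 95% interval of 52.4 to 61.0%. All 303 are described, with no filter on low values. The comparison line is TC-32, an established Ewing sarcoma line that the labels place at diagnosis. In both lines chromatin was immunoprecipitated with antibodies against BORIS, SMC1 or H3K27ac and sequenced beside input chromatin, with 2 samples per line and antibody and 16 samples in all. The labels name no drug treatment or genetic change of the cultures, and whether the 2 samples were grown separately is not among them. Each line and antibody has 1 peak list that both of its samples point to, so 6 lists were used, no value has a replicate error and no test between groups was possible. Intervals given with shares and medians cover counting error only, and the sequencing depth is unknown from peak lists.

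BORIS, also called CTCFL, is a paralog of CTCF that binds DNA through a similar array of zinc fingers and is normally restricted to male germ cells, although many tumours express it. SMC1 is a core subunit of cohesin, the ring complex that extrudes chromatin loops and halts mainly at CTCF. Acetylation of histone H3 at lysine 27 marks active promoters and enhancers and spreads over nucleosomes on both sides of the sites where factors bind. A BORIS site in an acetylated domain can therefore be described by its place in the domain, by the size of the domain, by the presence of cohesin and by the state of the same chromatin in another line.

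The sites were chosen by the peak calls of TC-71 for BORIS and H3K27ac, so values from those 2 lists describe the choice and support nothing. BORIS fold enrichment over background, the authors' own value per peak, had a median of 6.03 and ranged from 2.36 to 15.8. Peaks were narrow, with a median width of 128 bp and a range of 85 to 426 bp. The 231 BORIS sites outside the domains had a median fold of 5.96, but their range reached 31.4, so the strongest BORIS peak of the line lay outside acetylated chromatin. By rank of −log10 q over all 534 sites, where 1 is the highest, the median was 229 inside domains and 319 outside. From the summit of a site outside, the nearest TC-71 domain was a median of 10142 bp away, and 69 of 231 sites (29.9%) had a domain within 500 bp of the summit.

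At the limit of the rule, 5 sites shared between 1 and 5 bp with a domain. These lay at 19p13.12 (chr19:14682889-14683048), 15q21.3 (chr15:56538320-56538477), 14q32.33 (chr14:105947317-105947401), 3p21.31 (chr3:50297511-50297625) and 16q22.1 (chr16:66864854-66864998), with BORIS folds from 4.18 at 14q32.33 to 10.2 at 15q21.3. The 5 sites just left out lay 6 to 17 bp from a domain. They were at 11q13.5 (chr11:76903148-76903252), 16q22.1 (chr16:70285889-70286008), 17p13.2 (chr17:3749581-3749702), 2p13.2 (chr2:73115065-73115185) and 3p22.2 (chr3:38388130-38388257), with folds from 4.17 to 5.51. Sites on either side of this line were thus separated by a few bases of the domain call. Coordinates are hg19, counted from 1.

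Most sites lay wholly inside their domain. With a median of 128 bp for peaks and 2033 bp for domains, most overlapping peaks would fall inside at any placing. The share inside therefore shows nothing about placing. The whole BORIS peak was inside in 270 of 303 cases (89.1%, 85.1 to 92.4%), 33 peaks (10.9%) crossed an edge, and in 20 cases (6.60%) the summit itself was outside. The summit was a median of 585 bp from the nearest edge (537 to 686 bp), with quartiles of 346 and 990 bp and a range from 139 bp outside to 4677 bp inside. Scaled to the domain, with 0 at the centre and 1 at the edge, the median distance was 0.380 (0.303 to 0.429). As a reference, the 2291 SMC1 peaks of TC-71 in domains without BORIS had a median scaled distance of 0.438 (0.418 to 0.461) and were a median of 512 bp from the edge. The intervals of the 2 scaled medians overlap slightly. The innermost zone, up to 0.25, held 113 BORIS sites (37.3%, 31.8 to 43.0%) and 30.0% (28.1 to 31.9%) of those SMC1 peaks, intervals that overlap slightly. Summits beyond the edge differed more, at 6.60% (4.08 to 10.0%) of BORIS sites and 16.7% (15.2 to 18.3%) of SMC1 peaks. The 2 sets differ in ways that bear on this measure. Over the whole TC-71 lists SMC1 peaks were wider, with a median of 186 bp against 121 bp for BORIS. Domains under 568 bp held 191 of the 2291 SMC1 peaks and 8 of the 303 BORIS sites. The part of peak and domain width in the difference was not tested.

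The order of the medians of BORIS and SMC1 varied with domain width. In domains of 2057 to 3317 bp the median scaled distance was 0.303 for BORIS and 0.402 for SMC1 without BORIS, and in those of 1147 to 2056 bp it was 0.380 and 0.460. Between 568 and 1146 bp the values were 0.449 and 0.445, and in the widest class, from 3318 bp, BORIS lay further out, at 0.396 against 0.371. Under 568 bp the median summit was outside the domain for both, at 1.13 for 8 BORIS sites and 1.35 for 191 SMC1 peaks. The 33 sites that crossed an edge were in narrower domains, with a median of 910 bp. SMC1 of TC-71 was listed at 21 of these 33 (63.6%) and a TC-32 domain at 26 (78.8%).

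**Figure D1:**
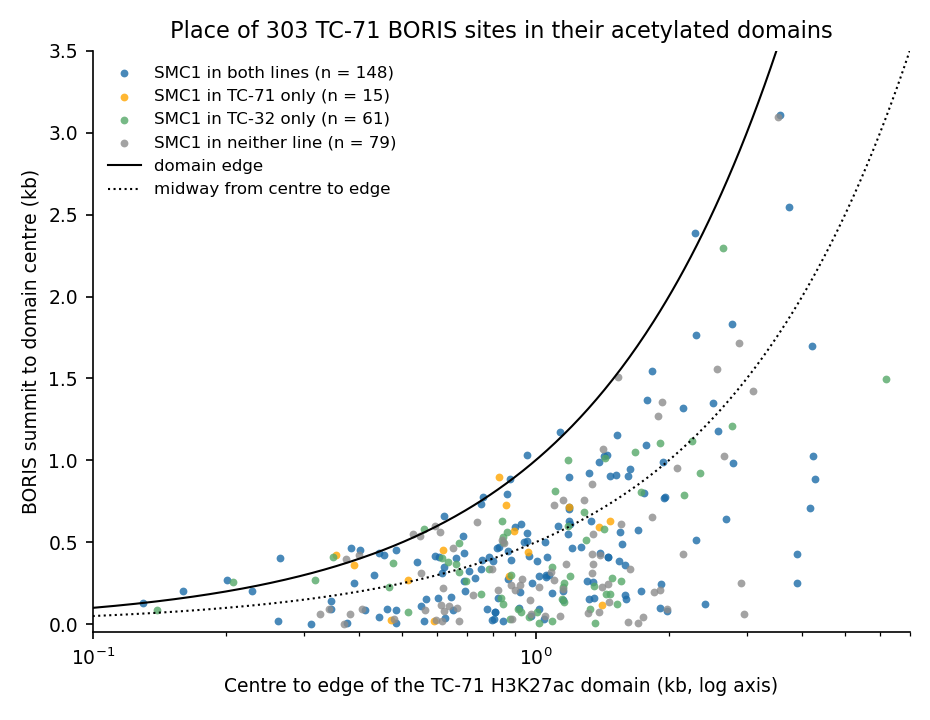
Each point is 1 of the 303 BORIS sites, plotted by the distance from centre to edge of its TC-71 H3K27ac domain (kb, log axis) and by the distance of the BORIS summit from the domain centre (kb), coloured by the line or lines with an SMC1 peak at the site. The solid curve is the domain edge and the dotted curve is midway between centre and edge; 20 summits lie beyond the edge and the median site is at 0.380 of the way from centre to edge.

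The 303 sites fell in 299 domains, of which 295 held 1 site, 4 held 2 and 0 held more. Over all 26334 domains of TC-71, 1.14% held a BORIS site, a share fixed by the rule and given only as background. Domains with BORIS had a median width of 2033 bp (1845 to 2245 bp) and ranged from 260 to 12354 bp, while the other 26035 domains had a median of 1136 bp. Their median fold enrichment of H3K27ac was 5.79 against 3.79, and their median rank percentile by −log10 q was 85.4 against 49.5. In the highest rank decile lay 120 of the 299 domains (40.1%, 34.5 to 45.9%), and below the median rank only 14 (4.68%). Going up the deciles, the share of domains with BORIS was 0 of 2633 in the lowest, which allows up to 0.140% by the exact interval, then 0.342% in the fifth, 1.63% in the eighth and 4.56% (3.79 to 5.42%) in the highest.

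Width and rank did not give the same picture. The share of domains with BORIS was 0.122% of those under 568 bp, 2.33% at 2057 to 3317 bp and 2.09% from 3318 bp. Per Mb of acetylated sequence, sites were densest at 1147 to 2056 bp, at 10.0 per Mb, with 3.93 per Mb in the widest class, close to the 3.51 per Mb of the narrowest. Across the 303 sites Spearman's rho was 0.00 between −log10 q of BORIS and domain width, and 0.11 with domain rank percentile. These values come from the 2 lists that chose the sites, so they describe the chosen sites only. Both values of each point came from the same line and its input. Domains with BORIS were also more isolated, with a median gap of 17178 bp to the next domain against 9740 bp for the others, and 5.69% (3.35 to 8.95%) had another domain within 1 kb against 12.1%.

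**Figure D2:**
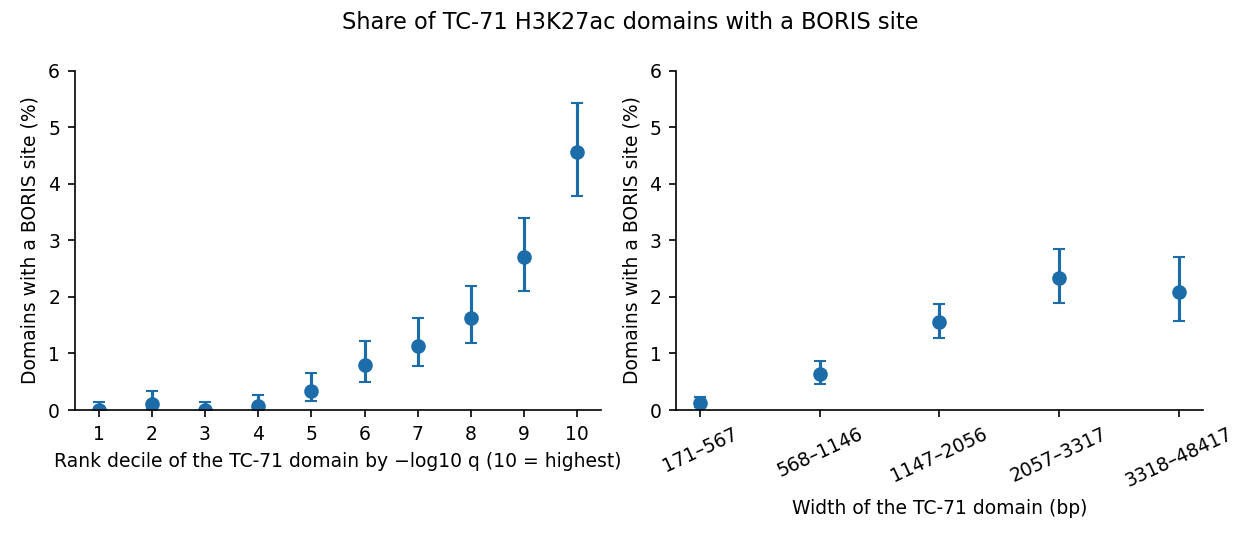
The share of TC-71 H3K27ac domains that hold a BORIS site (%), with exact 95% intervals as bars, is plotted by rank decile of the domain (left, 10 is the highest −log10 q) and by width class in bp (right). It reaches 4.56% in the highest decile, whereas by width it levels at 2.33% and 2.09% in the 2 widest classes.

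Cohesin was found at fewer of the acetylated BORIS sites than of the others. An SMC1 peak of TC-71 overlapped 163 of 303 sites (53.8%, 48.0 to 59.5%) inside domains and 179 of 231 (77.5%, 71.6 to 82.7%) outside, against 64.0% of all BORIS sites. In TC-32, which has nearly no BORIS peaks, the same places carried SMC1 at 209 sites inside (69.0%, 63.4 to 74.1%) and 186 outside (80.5%, 74.8 to 85.4%), against 74.0% of all. The intervals of sites inside and outside do not overlap in TC-71 and are separated by less than 1 percentage point in TC-32. The TC-32 list of SMC1 is the longer one, with 32720 peaks against 18264. With both lists cut to the same length the shares in TC-32 were 43.2% (37.6 to 49.0%) inside and 69.7% outside, so the higher share in TC-32 than in TC-71 turned over while the lower share inside domains remained.

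Taking both lines, 148 sites (48.8%) had SMC1 in both, 15 (4.95%) in TC-71 only, 61 (20.1%) in TC-32 only and 79 (26.1%, 21.2 to 31.4%) in neither. Outside domains the corresponding counts were 164 (71.0%), 15 (6.49%), 22 (9.52%) and 30 (13.0%, 8.94 to 18.0%). Where TC-71 had SMC1 at an acetylated BORIS site, TC-32 had it too in 148 of 163 cases (90.8%, 85.3 to 94.8%), near the 87.6% of SMC1 peaks in domains without BORIS. At the 140 sites that lacked SMC1 in TC-71, TC-32 had it at 61 (43.6%). Of these 140 sites, 15 (10.7%) had a TC-71 SMC1 peak elsewhere in the domain. For comparison, 8.84% of all TC-71 domains and 8.28% of those without BORIS held SMC1, but these shares are not matched for width. The median width was 1136 bp in domains without BORIS and 2190 bp at the 140 sites. By width, domains without BORIS held SMC1 in 7.99% at 1147 to 2056 bp, 12.1% at 2057 to 3317 bp and 23.0% from 3318 bp. At 5 of the 140 a TC-71 SMC1 peak lay within 500 bp of the summit, and the median distance from the summit to the nearest was 23561 bp. Of the 79 sites with SMC1 in neither line, 11 (13.9%) had an SMC1 peak of either line elsewhere in the domain.

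Where SMC1 was present it sat on the BORIS summit but was of modest rank. The summits were a median of 16 bp apart in TC-71, with 147 of 163 (90.2%) within 50 bp, and 18 bp apart in TC-32, with 179 of 209 (85.6%) within 50 bp. The SMC1 peaks of TC-71 at these sites had a median rank percentile of 45.8 (37.3 to 55.2) in the whole SMC1 list, compared with 66.0 (58.4 to 74.6) at BORIS sites outside domains and 42.7 (40.1 to 45.3) for SMC1 in domains without BORIS. Their median fold was 5.50, equal to the 5.50 of SMC1 in domains without BORIS and below the 6.91 at BORIS sites outside. In TC-32 the median percentile was 54.5 (49.2 to 61.4) inside and 73.2 (68.3 to 77.3) outside. The lowest 25% of the TC-32 list held 41 of 209 inside (19.6%) and 9 of 186 outside (4.84%). Peaks listed in 1 line only were the low ones: the median TC-32 percentile was 27.1 at sites with SMC1 in TC-32 only and 66.1 at sites with SMC1 in both, and the median TC-71 percentile was 19.9 and 52.2 respectively.

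A stronger BORIS peak did not come with more cohesin. Divided into 3 sets of 101 by BORIS rank, sites had SMC1 in TC-71 in 45.5% (35.6 to 55.8%) of the highest set, 54.5% of the middle and 61.4% (51.2 to 70.9%) of the lowest, with overlapping intervals. Outside domains the same split gave 77.9%, 74.0% and 80.5%. The SMC1 share in TC-32 was 70.3%, 70.3% and 66.3% over the 3 sets. The SMC1 peaks there had lower median percentiles under strong BORIS sites, at 44.5 (27.1 to 52.9), 60.2 and 62.8 (52.9 to 71.1). The intervals of the highest and lowest sets meet at 52.9. In TC-32, peaks from the lowest 25% of the SMC1 list made up 23 of 71 (32.4%) in the highest BORIS set and 9 of 67 (13.4%) in the lowest. Spearman's rho between BORIS −log10 q and the SMC1 percentile was -0.04 over 163 sites in TC-71 and -0.22 over 209 sites in TC-32. The BORIS and SMC1 values of TC-71 share a cell line and its input, and those of TC-32 come from other libraries. Outside domains the values were 0.07 over 179 sites and 0.05 over 186.

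Sites with SMC1 in neither line lay nearer the middle of the domain than sites with SMC1 in both. The median scaled distance was 0.256 (0.197 to 0.318) for the 79 sites with SMC1 in neither line and 0.404 (0.321 to 0.508) for the 148 with SMC1 in both. The 61 sites with SMC1 in TC-32 only were like the latter, at 0.396 (0.243 to 0.508). The innermost zone held 39 of 79 (49.4%, 37.9 to 60.9%) and 46 of 148 (31.1%, 23.7 to 39.2%), with intervals that overlap slightly. By TC-71 alone the medians were 0.297 (0.230 to 0.394) without SMC1 and 0.429 (0.365 to 0.512) with it. The domains were of like width, with a median of 2200 bp at sites with SMC1 in neither line and 2026 bp at sites with SMC1 in both. The median H3K27ac fold was 6.35 (5.88 to 6.75) and 5.68 (5.38 to 5.98) for the same groups. BORIS fold was a median of 5.99 and 5.77, and 6.74 at the 61 sites with SMC1 in TC-32 only. The part of the H3K27ac level in these differences was not tested.

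**Figure D3:**
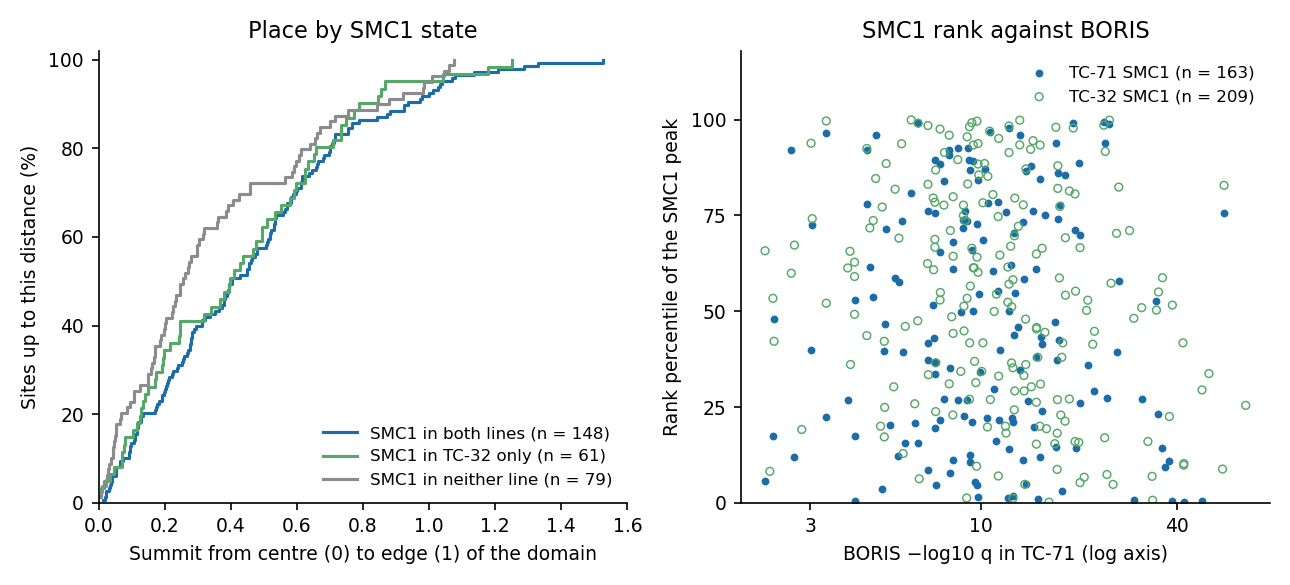
Left, the cumulative share of BORIS sites (%) by the distance of the summit from the domain centre (0) to its edge (1), for sites with SMC1 in both lines, in TC-32 only and in neither line; the last reaches 49.4% at 0.25, the first 31.1%. Right, the rank percentile of the overlapping SMC1 peak in TC-71 (filled) and TC-32 (open) against −log10 q of BORIS in TC-71 (log axis), 1 point per site; Spearman's rho is -0.04 and -0.22.

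Seen by domain, SMC1 in domains with BORIS was mostly listed at the BORIS site itself. A TC-71 SMC1 peak lay anywhere in 172 of the 299 domains with BORIS (57.5%, 51.7 to 63.2%), in 8.28% of domains without BORIS and in 8.84% of all. Leaving out the SMC1 peaks that overlap BORIS, the share in domains with BORIS was 26 of 299 (8.70%, 5.76 to 12.5%), although these domains were wider. Within width classes this remainder was 5.88% (2.19 to 12.4%) against 7.99% of domains without BORIS at 1147 to 2056 bp. It was 8.70% (3.83 to 16.4%) against 12.1% at 2057 to 3317 bp and 18.2% (9.08 to 30.9%) against 23.0% from 3318 bp. Each of these intervals includes the value without BORIS. In TC-32 the same places gave 214 of 299 domains (71.6%) with SMC1, 17.8% without BORIS and 41 (13.7%, 10.0 to 18.1%) away from the BORIS site. From 3318 bp on, the TC-32 values away from BORIS were 27.3% (16.1 to 41.0%) against 45.3% (43.3 to 47.2%) in domains without BORIS, and at 1147 to 2056 bp they were 8.82% (4.11 to 16.1%) against 18.8% (17.8 to 19.7%). Because a site's own SMC1 peak was removed only where BORIS was present, this contrast takes away 1 peak per domain on one side alone. It therefore cannot show that SMC1 is scarcer away from BORIS.

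**Figure D4:**
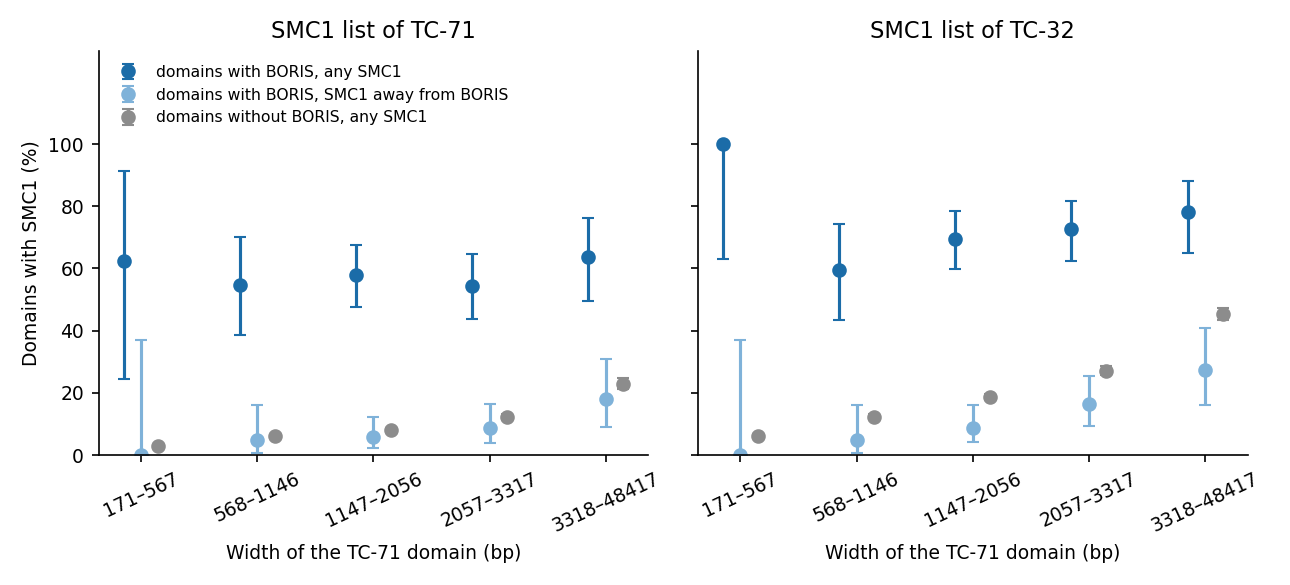
The share of TC-71 H3K27ac domains with an SMC1 peak (%), by width class in bp, for the SMC1 list of TC-71 (left) and of TC-32 (right); bars are exact 95% intervals. Domains with BORIS stand at 54.3 to 63.6% in TC-71 in each class, while their SMC1 peaks away from BORIS stand below domains without BORIS in each class. Peaks at BORIS were removed on one side alone, and in TC-71 the intervals away from BORIS include the values without BORIS.

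The chromatin around these sites was also acetylated in TC-32 in most cases. A TC-32 domain overlapped 269 of 303 sites (88.8%, 84.7 to 92.1%), against 33 of 231 sites outside TC-71 domains (14.3%) and 56.6% of all BORIS sites. By domain, 280 of 299 (93.6%, 90.2 to 96.1%) overlapped a TC-32 domain, against 67.0% of domains without BORIS and 67.3% of all. Within rank deciles the difference was smaller and changed direction. In the highest rank decile the share was 116 of 120 (96.7%, 91.7 to 99.1%) with BORIS and 99.2% (98.8 to 99.5%) without, and in the ninth decile 69 of 71 (97.2%) and 97.7%. In the eighth it was 38 of 43 (88.4%, 74.9 to 96.1%) and 95.2%, in the seventh 30 of 30 and 88.9%, and in the sixth 18 of 21 (85.7%) and 75.3%.

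The 269 shared sites lay in domains of like size in both lines. Median widths were 2127 bp for TC-71 and 1969 bp for TC-32, with median rank percentiles of 87.8 and 87.7 in the respective lists. The ratio of TC-32 to TC-71 width had a median of 0.991 (0.946 to 1.03), and the TC-32 domain was the wider one at 127 of 269 sites (47.2%). Across these sites Spearman's rho between the widths was 0.76, a description over points from 2 lists called separately. Among domains without BORIS the ratio had a median of 1.11 (1.10 to 1.12) and TC-32 was wider in 59.6%. Within width classes the order varied. Under 568 bp the ratio was 1.44 (0.889 to 3.12) at 7 sites with BORIS and 3.39 (3.23 to 3.59) without. In the widest class, from 3318 bp, the ratio was 0.984 (0.876 to 1.05) with BORIS and 0.866 (0.845 to 0.886) without, intervals that overlap slightly. Only 19 sites had a TC-32 domain over 2 times wider and 9 a TC-71 domain over 2 times wider. The scaled distance of the BORIS summit was a median of 0.361 in the TC-32 domain and 0.358 in the TC-71 domain of the same sites.

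**Figure D5:**
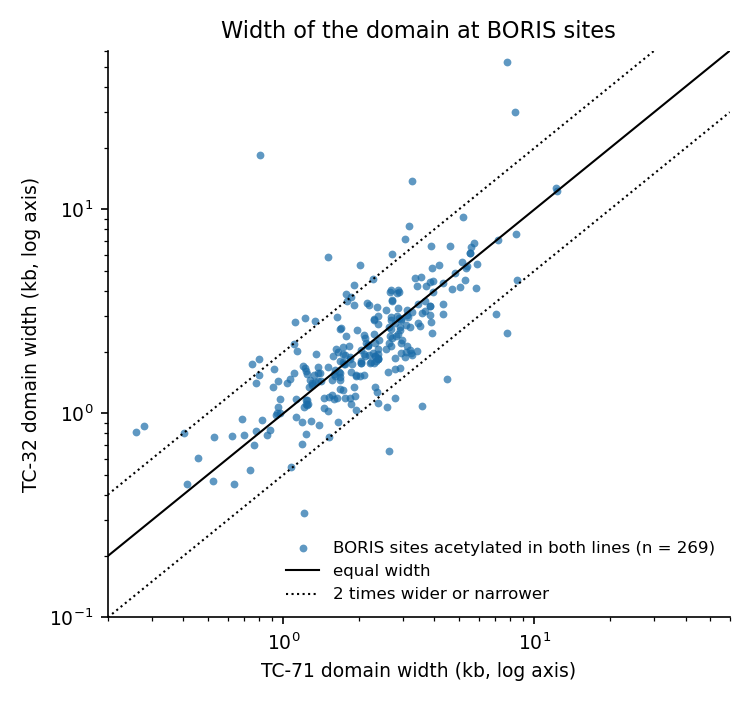
Width of the H3K27ac domain in TC-71 (x) and TC-32 (y) at the 269 BORIS sites acetylated in both lines (kb, log axes), 1 point per site. The solid line marks equal widths and the dotted lines a factor of 2, beyond which lie 19 sites above and 9 below; the median ratio is 0.991.

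The 34 sites without a TC-32 domain differed from the 269 in their cohesin. SMC1 of TC-71 was at 27 of 34 (79.4%, 62.1 to 91.3%) against 136 of 269 (50.6%, 44.4 to 56.7%), intervals that do not overlap. SMC1 in TC-71 but not in TC-32 was found at 8 of 34 (23.5%, 10.8 to 41.2%) against 7 of 269 (2.60%, 1.05 to 5.29%). SMC1 of TC-32 was at 20 of 34 (58.8%, 40.7 to 75.4%) against 70.3% (64.4 to 75.7%), intervals that overlap. BORIS fold was a median of 6.04 at the 34 and 6.03 at the 269. Their TC-71 domains were lower and narrower, with a median fold of 4.83 against 5.98, a rank percentile of 73.9 against 87.8 and a width of 1635 bp (1096 to 1934 bp) against 2127 bp. They also lay further out, at a scaled distance of 0.546 (0.374 to 0.733) against 0.358 (0.280 to 0.408), and 6 of the 34 summits (17.6%) were beyond the edge.

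Several of the 34 were matters of where a domain ended. A TC-32 domain lay within 500 bp of the summit in 14 and elsewhere in the same TC-71 domain in 15, while at 13 sites the nearest was over 10 kb from it. The 19 sites whose whole TC-71 domain had no TC-32 counterpart were in domains with a median of 1239 bp, and their summits were a median of 38694 bp from the nearest TC-32 domain. SMC1 of TC-71 was at 15 of these 19 (78.9%, 54.4 to 94.0%), and anywhere in the domain in 16 of 19 (84.2%, 60.4 to 96.6%) against 156 of 280 domains (55.7%, 49.7 to 61.6%) with a TC-32 counterpart. The last 2 intervals overlap slightly. Among domains without BORIS the order was the other way, at 4.91% without and 9.94% with a TC-32 counterpart. These shares are not matched for rank. From the lowest to the highest rank decile of domains without BORIS, overlap with TC-32 domains rose from 29.0 to 99.2%. The share with SMC1 of TC-71 rose from 1.67 to 12.6%.

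The BORIS list of TC-32 held only 6 peaks, which overlapped 2 of all 534 TC-71 BORIS sites (0.375%). Sharing was thus rare everywhere, at 1 of the 231 sites outside domains (0.433%) and 1 of the 303 inside (0.330%). BORIS itself was shared with TC-32 at this 1 site of the 303. This was at 12q21.31 (chr12:82752224-82752385), with a BORIS fold of 5.51 in TC-71 against 4.81 in TC-32. The site lay in a 2388 bp domain (chr12:82750830-82753217) beside another BORIS site (chr12:82752536-82752707) with a fold of 5.11. A single TC-32 SMC1 peak with a fold of 12.9, at percentile 91.4, spanned both, whereas TC-71 SMC1 was listed at the second only, with a fold of 4.37.

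In TC-71 the other domains with 2 sites also had SMC1 at 1 site only. At 2q21.1, in a 3825 bp domain, the site at chr2:132249949-132250062 (fold 7.26) had SMC1 in both lines and the stronger one at chr2:132250261-132250442 (fold 8.27) in neither. At 11q13.1, in a 2033 bp domain, the site at chr11:64781419-64781627 (fold 7.93) had SMC1 in both lines, though the TC-32 SMC1 summit lay 370 bp away. Its neighbour at chr11:64781705-64781887 (fold 10.4), almost exactly central with a scaled distance of 0.0059, had SMC1 in TC-32 only, at percentile 0.68 of that list. At 15q15.1, in a 5555 bp domain, the site at chr15:40571723-40571810 (fold 5.92) had high SMC1 peaks in both lines, at percentiles 89.3 and 93.4. The other, at chr15:40574767-40574867 (fold 4.32), had SMC1 in TC-32 only. In each of the 4 domains, then, TC-71 listed SMC1 at 1 BORIS site and not at the other. TC-32 listed SMC1 at both sites in each of these domains except 2q21.1. From the BORIS summit without it, the nearest TC-71 SMC1 peak was 231 bp away at 2q21.1 and 277 bp at 11q13.1. It was 284 bp away at 12q21.31 and 2894 bp at 15q15.1.

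The 20 sites with the highest BORIS −log10 q had folds from 6.28 to 15.8 and lay in domains of 415 to 4615 bp. A TC-32 domain overlapped each of the 20, while SMC1 was in both lines at 8, in TC-71 only at 1, in TC-32 only at 7 and in neither at 4. The highest was at 6p23 (chr6:13615421-13615613), with a fold of 15.8. It was central in a 2176 bp domain, at a scaled distance of 0.016, and carried SMC1 in TC-32 only, at percentile 25.4. The TC-32 domain there was 2172 bp wide, nearly the same width. At 16p13.3 (chr16:1756038-1756222) a site of fold 15.8 in a 2880 bp domain likewise had SMC1 in TC-32 only, at percentile 33.7. At 19q13.2 (chr19:39420962-39421254) a site of fold 15.3 had SMC1 in both lines, at percentiles 75.7 of the TC-71 list and 82.9 of the TC-32 list, each the highest among the 20.

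Sites of SMC1 in neither line included 7q21.2 (chr7:92157868-92158094) with a BORIS fold of 14.8, 14q11.2 (chr14:21571797-21571958) with 11.6, 22q11.21 (chr22:20104593-20104806) with 10.1 and 1p35.1 (chr1:32816799-32816995) with 12.5. The 14q11.2 and 22q11.21 sites were nearly central, at scaled distances of 0.0090 and 0.047 in domains of 3234 and 3959 bp, whereas the 1p35.1 site was at 0.919. Other strong BORIS sites had SMC1 peaks at the very bottom of the TC-71 list: percentile 0.468 at 15q26.3 (chr15:102192528-102192757, BORIS fold 14.1), 0.153 at 8q22.1 (chr8:95565777-95565938, fold 8.57) and 0.589 at 9q34.3 (chr9:139622613-139622798, fold 11.7). In TC-32 the SMC1 peaks at those 3 places were at percentiles 29.5, 10.3 and 51.6. The single site with SMC1 in TC-71 only was at 14q32.2 (chr14:100752079-100752255, fold 9.60), near the edge at 0.925. A pair of the 20 had the summit outside the domain, 52 bp beyond the edge at 7q22.1 (chr7:102213023-102213211, fold 8.15, domain 415 bp) and 139 bp at 19p13.3 (chr19:2819662-2819971, fold 15.2, domain 530 bp).

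The sites in the 10 widest domains had BORIS folds of 2.36 to 5.51 and SMC1 in both lines at 8 of 10. Over all 57 sites in domains from 3318 bp, the median BORIS fold was 5.90 and SMC1 of TC-71 was at 30 (52.6%, 39.0 to 66.0%), near the 6.03 and 53.8% of all 303. The widest domain, 12354 bp at 8q24.21 with the site at chr8:127833158-127833283, was matched by a TC-32 domain of 12303 bp, and a 12205 bp domain at 7p22.1 (chr7:5468527-5468631) by one of 12775 bp. Those were the 2 sites with SMC1 in TC-32 only. A second 8q24.21 site (chr8:128750064-128750179) had the lowest BORIS fold of all, 2.36, in an 8484 bp domain, with a TC-71 SMC1 peak at percentile 92.0. In TC-32 the domains at 14q32.31 (chr14:102990947-102991036) and 7q31.2 (chr7:116166284-116166368) were far wider than in TC-71, at 30116 against 8345 bp and 52677 against 7783 bp. At 2q31.1 (chr2:176944669-176944861), a band that holds the HOXD cluster of developmental regulators (overlap not tested), the BORIS summit in a 7480 bp domain was 12577 bp from the nearest TC-32 domain. Its SMC1 peaks were high in both lines, at percentiles 96.6 in TC-71 and 99.7 in TC-32. At 8q13.3 (chr8:72756145-72756237) the BORIS summit in an 8434 bp domain was 111959 bp from the nearest TC-32 domain, with SMC1 in both lines at percentiles 53.0 and 62.8.

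Of the 10 strongest sites without a TC-32 domain, 7 had one within 500 bp of the summit. The strongest, at 15q21.3 (chr15:56538320-56538477, fold 10.2), shared 2 bp with its TC-71 domain, and its summit was 154 bp from a TC-32 domain, with SMC1 peaks at percentile 99.4 of the TC-71 list and 98.6 of the other. The 3 with no TC-32 domain near were at 16p13.3 (chr16:629201-629358, fold 10.2), 8255 bp from the summit, at 22q11.22 (chr22:22901645-22901824, fold 5.48), 38694 bp away, and at 16q12.1 (chr16:47177388-47177514, fold 9.42), 105464 bp away. The 16q12.1 site was nearly central in a 1618 bp domain with a high H3K27ac fold of 8.54 and had SMC1 at percentiles 77.8 in TC-71 and 77.3 in TC-32. SMC1 at the 22q11.22 site was in TC-71 only, as at 12q24.31 (chr12:122501960-122502111, fold 6.11) and 19q13.11 (chr19:33793440-33793554, fold 7.52).

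The 303 sites fell in 196 cytogenetic bands, of which 62 held 2 or more and 14 held 4 or more, and the next site was a median of 1513775 bp away. The band with most was 16p13.3 with 7, followed by 11q13.1, 16p11.2, 19q13.2 and 1p34.3 with 5 each. Among the 14 bands with 4 or more sites, SMC1 of TC-71 ranged from 0 of 4 sites at 7q22.1 to 4 of 4 at 5q35.3. Over all 303 sites the share was 53.8%. At 7q22.1 SMC1 of TC-32 was listed at 2 of the 4 sites, and each of the 4 had a TC-32 domain. By chromosome, the share of domains with a site was highest on chromosome 16, picked after seeing them all. It was 2.46% (1.57 to 3.67%) there, 1.66% on the next, chromosome 19, and 1.14% over all chromosomes. Chromosome 16 held 38 of all 534 BORIS sites, inside domains or not, and 934 of the 26334 domains. The higher share there is thus not particular to the sites in domains. Unstained bands, which are in general gene-rich and replicate early, held 215 of 303 sites (71.0%, 65.5 to 76.0%), 62.8% (56.2 to 69.0%) of BORIS sites outside domains and 54.2% of all TC-71 domains.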

How the data were processed

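Per the submitters' processing notes, MACS2 2.1.1, Picard, STAR 2.5.1b, deepTools 2.2.4 and SAMtools 1.3.1 were used with hg19. Their roles and settings, and whether peaks were called on pooled samples, are not given in the sources used. The authors deposited narrow peaks (BORIS, SMC1) and broad domains (H3K27ac), each with a score, a fold enrichment, a −log10 p and a −log10 q. These are the authors' values, used here only within their own list to describe, filter or rank. Rows with several summits were taken as 1 interval at the summit of highest −log10 q, which turned 552 BORIS rows into 534 sites. Overlap meant at least 1 bp. A rank percentile is the place by −log10 q within its list, with 100 the highest. Width classes follow the quartiles of the TC-71 domains, with domains above the 75th percentile divided at the 90th.

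Shares carry exact (Clopper-Pearson) intervals and medians exact binomial order-statistic intervals, both at 95%. Overlap and interval routines were tested on simulated data. Bands came from circlize 0.4.16. No interval (0) passed an hg19 chromosome end. The gene tables at hand are of another build, so no gene or sequence was assigned. Named regions are the 20 highest sites, domains with 2 sites, the 10 highest without a TC-32 domain, the 10 in the widest domains, sites shared with TC-32 BORIS, and 5 on each side of the limit. The members, groups and lists were chosen with earlier results of these data known. Alternatives were −log10 q of at least 5, the summit inside the domain, 50% of the peak covered, a 500 bp window, domains within 1 kb merged, lists of equal length and other ranks. Work was done in R 4.3.3 and Python 3.11.15 (pandas 2.3.3, numpy 2.4.6, matplotlib 3.10.9, scipy 1.17.1).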

Additional observations from a re-analysis of the deposited data

How the results depend on the processing

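Other settings gave 54 values over 10 results, of which 46 stayed within the interval of the value reported (counts within 1.5 times) and 8 moved beyond it. Counting sites with a domain within 500 bp of the summit took in 372 sites. In this setting SMC1 peaks and TC-32 domains were also counted within 500 bp of the summit, not by overlap with the site. It gave SMC1 in TC-71 at 61.0%, SMC1 in TC-32 at 74.2% and a TC-32 domain at 92.7%. SMC1 in TC-32 was at 63.0% of sites with SMC1 peaks of −log10 q of at least 5, and at 43.2% with lists of equal length. The median rank percentile of domains with BORIS was 73.9 when H3K27ac was limited to −log10 q of at least 5, 82.5 by fold and 79.6 by width times fold. Alternatives for sites outside domains and for place by SMC1 state were chosen after seeing the data, and 21 of these 22 stayed within the interval. The other was SMC1 in TC-32 outside domains with lists of equal length, at 69.7%. No paired analysis was possible because both samples of a line share a list without sample values, and for the same reason no sample could be left out. The depth is unknown, so an absent peak may lie under the calling threshold.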
